A study of Mus musculus with 6 samples.

Results

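Blood clots when a cascade of liver-made proteases converts soluble fibrinogen into a mesh of fibrin, and other liver proteases later restrain the cascade or dissolve the mesh. The 10 genes described here encode the fibrinogen chains Fga, Fgb and Fgg, the clotting proteases F2, F7, F9, F10 and F12, the clot-dissolving enzyme precursor Plg and the anticoagulant protease Proc. Hepatocytes secrete all of these proteins into plasma, so their messenger RNAs are read by ribosomes at the endoplasmic reticulum. The genes were chosen by name, through a list of Ensembl identifiers, and all 10 were found among the 8941 genes in the tables. The identifiers are ENSMUSG00000028001 (Fga), ENSMUSG00000033831 (Fgb), ENSMUSG00000033860 (Fgg), ENSMUSG00000027249 (F2), ENSMUSG00000031443 (F7), ENSMUSG00000031138 (F9), ENSMUSG00000031444 (F10), ENSMUSG00000021492 (F12), ENSMUSG00000059481 (Plg) and ENSMUSG00000024386 (Proc). All 10 also passed the filter of a mean of at least 1 RPKM, as did 8355 genes in all.

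The measurement is disome profiling of mouse liver, which sequences the stretch of messenger RNA shielded from nuclease by a pair of stacked ribosomes. Disome footprints mark places where a trailing ribosome has run into a leading one that moves slowly. Livers came from male mice of the inbred strain C57BL/6JRj, aged 11 to 12 weeks and held in cycles of 12 h light and 12 h dark. Animals were taken at ZT0 (zeitgeber time, hours after lights on), ZT2 and ZT12, with 2 libraries per time point and lysates of 2 mice pooled in each library. The labels name no mutant or treated group. The authors' level is RPKM, a read count divided by a length for each gene, here a coding length for all 10 genes of the group, and scaled for each library. Monosome footprints and total RNA were not analysed here, so a lower disome level can come from fewer transcripts, less translation or fewer collisions, and these cannot be told apart. In whole liver, fewer cells of a type and less RNA per cell cannot be told apart either. The tables hold no gene names, so the tissue label was not checked against markers of other cell types.

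The libraries were deep enough for every gene of the group. Whole reads recovered from the steps of the RPKM values totalled 6346387 to 12322651 per library. The group held between 456 reads (F7, ZT2 replicate 2) and 63228 reads (Fgb, ZT2 replicate 1) per gene and library. Across all tested genes, Pearson's r between replicates was 0.948 for the ZT2 pair, the least alike, 0.976 for the ZT12 pair and 0.989 for the ZT0 pair.

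The fibrinogen chains carried the clearest difference between time points, and they are neighbours in the genome. In the RefSeq annotation of GRCm38.p6, Fgg lies at chr3:83007724-83015056, Fga at chr3:83026153-83033627 and Fgb at chr3:83042246-83049863. Fgg and Fga are on the plus strand and Fgb on the minus strand. The gaps are 11096 bp between Fgg and Fga and 8618 bp between Fga and Fgb, with 0 protein-coding genes annotated inside either gap. Their promoters are shown because these genes shared the order of their mean levels over the time points, with ZT2 highest and ZT12 lowest. Plg and Proc had that order too. Each sequence is the 250 bases before the RefSeq start, 5′ to 3′ on the gene's strand, at chr3:83025903-83026152 (Fga, plus), chr3:83049864-83050113 (Fgb, minus) and chr3:83007474-83007723 (Fgg, plus). Capitals mark matches to any of 4 motifs: the HNF1 half-site GTTAAT, the C/EBP core TTNNGNAA, the interleukin-6 response element core CTGGGAA and the D-box TTANGTAA, each searched on both strands. Every D-box match is also a match to the C/EBP core.
Fga: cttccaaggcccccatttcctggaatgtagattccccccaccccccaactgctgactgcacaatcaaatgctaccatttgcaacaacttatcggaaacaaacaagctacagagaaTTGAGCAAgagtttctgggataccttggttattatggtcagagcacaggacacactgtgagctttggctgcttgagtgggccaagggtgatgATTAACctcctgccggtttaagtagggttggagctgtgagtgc
Fgb: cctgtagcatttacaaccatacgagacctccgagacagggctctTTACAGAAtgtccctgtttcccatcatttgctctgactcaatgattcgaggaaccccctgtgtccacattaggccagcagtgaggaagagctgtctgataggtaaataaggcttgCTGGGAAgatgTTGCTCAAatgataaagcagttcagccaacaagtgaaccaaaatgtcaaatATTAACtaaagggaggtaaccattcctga
Fgg: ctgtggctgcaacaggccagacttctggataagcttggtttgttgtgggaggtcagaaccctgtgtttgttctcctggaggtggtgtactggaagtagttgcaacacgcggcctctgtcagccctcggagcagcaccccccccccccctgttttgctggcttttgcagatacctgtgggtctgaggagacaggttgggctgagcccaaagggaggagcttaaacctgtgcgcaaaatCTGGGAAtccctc

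HNF1 and C/EBP proteins are liver transcription factors, interleukin-6 drives the acute-phase rise of fibrinogen, and the D-box binds clock-output factors such as DBP. The HNF1 half-site occurred in Fga, 43 to 38 bases before the start, and in Fgb, 29 to 24 bases before it, both on the reverse strand. It was present in 6.43% of the 32851 promoter windows of the same length in the RefSeq table. The C/EBP core occurred in Fga and at 2 places in Fgb, and in 36.8% of all windows. CTGGGAA occurred in Fgb, 91 to 85 bases before the start, and in Fgg, 13 to 7 bases before it, and in 9.1% of all windows. No motif of the 4 was matched in all 3 fibrinogen windows. Of the 8 genes of the group with a promoter in the table, HNF1 half-sites were in 2 (Fga and Fgb), the C/EBP core in 3 (Fga, Fgb and F9) and CTGGGAA in 3 (Fgb, Fgg and F9). The F7 window, chr8:13025784-13026033, lies inside the annotated gene, which starts at base 13025506. The F9 window, chrX:59999214-59999463, runs past the annotated gene start at base 59999329, and both F9 matches lie after that base. The D-box was in 0 of 8, against 2.06% of all windows. These matches are letters in a window, and no factor binding was measured.

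Disome density was highest on the fibrinogen chains by a wide margin. Averaged over the 6 libraries, Fgb had 4474 RPKM ± 1586, Fgg 4235 RPKM ± 1347 and Fga 3294 RPKM ± 1178 (SD, n = 6 each). These means ranked 30, 33 and 45 among the 8941 genes. Fgb and Fgg were not separated, since Fgb was the higher in 3 of 6 libraries. Fgg exceeded Fga in 6 of 6 libraries, by 1.15 to 1.51 times, although the ranges of the genes across libraries overlapped. RPKM is a level per length, and the lengths recovered from the values were 557 codons for Fga, 481 for Fgb and 436 for Fgg.

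The zymogens, inactive protease precursors, followed at lower density. Plg had 833 RPKM ± 183 and F2 601 RPKM ± 101 (SD, n = 6 each), with Plg the higher in 6 of 6 libraries. The lowest fibrinogen level, that of Fga, exceeded Plg by 3.17 to 5.37 times within a library. Proc had 353 RPKM ± 40.6 and F10 322 RPKM ± 57.1 (SD, n = 6 each), an order that held in 4 of 6 libraries. F12 had 123 RPKM ± 14.3 and F9 114 RPKM ± 22.8 (SD, n = 6 each), an order that held in 3 of 6 libraries. F7 was the lowest in every library, at 54.5 RPKM ± 12.6 (SD, n = 6), and still exceeded 83.2% of all genes listed. The ranges across libraries did not overlap between Fga and Plg, F2 and Proc, F10 and F12, or F9 and F7, so the group fell into 5 tiers of level.

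**Figure D1:**
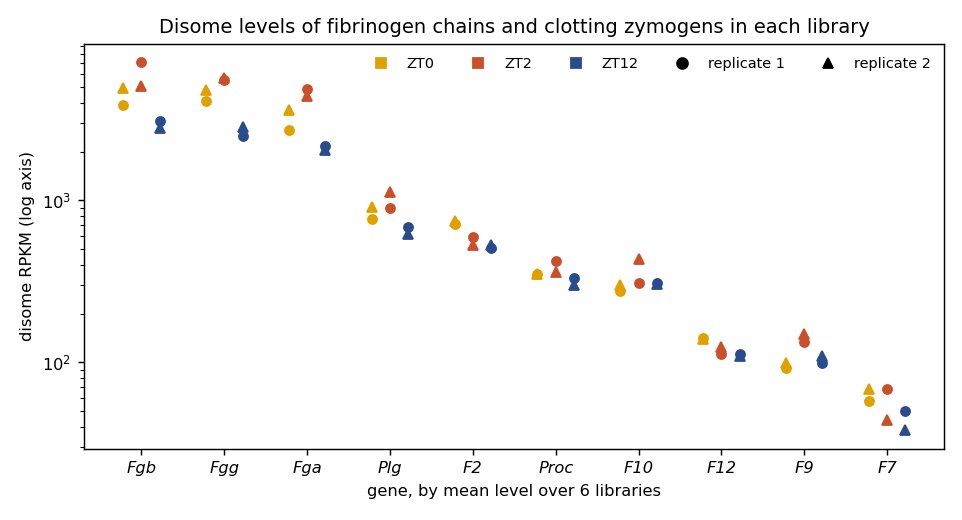
Disome RPKM on a log axis for each of the 10 genes, ordered by mean level; colours are time points, circles are replicate 1 and triangles replicate 2. The fibrinogen chains sit between 2034 and 7098 RPKM in every library, above all zymogens, and F7 lies lowest at 38.0 to 68.4 RPKM.

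As shares of reads, which are not per length, fibrinogen again led. The 10 genes held 2.20% ± 0.580 (SD, n = 6) of all recovered reads. The fibrinogen chains alone held 1.74% ± 0.539 and the 7 zymogens 0.456% ± 0.0497 (SD, n = 6 each). By time point, the fibrinogen share was 1.51% and 1.92% in the ZT0 libraries, 2.49% and 2.17% in those of ZT2 and 1.20% and 1.16% in those of ZT12. Exact Clopper-Pearson 95% intervals were at most as wide as 2.47 to 2.50% (ZT2 replicate 1) and cover counting error only. The zymogen share moved less, at 0.444% and 0.493% in the ZT0 libraries, 0.468% and 0.526% in those of ZT2 and 0.418% and 0.390% in those of ZT12. Both shares were lowest in the ZT12 libraries, and of the reads on the group, fibrinogen took 74.2 to 74.8% at ZT12 against 80.5 to 84.2% at ZT2. No test was run on these shares.

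Mean disome levels of fibrinogen were highest 2 h after lights on and lowest at the start of the dark phase. The ZT12 means of the chains were 0.454 (Fga), 0.476 (Fgg) and 0.483 (Fgb) of their ZT2 means, and the difference passed the test for Fga and Fgg. Fga, the alpha chain that releases fibrinopeptide A when thrombin cuts it, had 2704 and 3622 RPKM in the ZT0 libraries, 4831 and 4411 RPKM in those of ZT2 and 2159 and 2034 RPKM in those of ZT12. Both ZT2 libraries lay above both ZT0 libraries, which lay above both ZT12 libraries. The Fga level was 2.20-fold lower at ZT12 than at ZT2, or -1.14 ± 0.19 (SE) on the log2(RPKM + 1) scale, and passed at an adjusted p of 0.036 in limma.

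Fgg, the gamma chain whose end binds platelets, had 4094 and 4797 RPKM in the ZT0 libraries, 5534 and 5661 RPKM in those of ZT2 and 2481 and 2843 RPKM in those of ZT12. Again no library of a time point overlapped another time point's. The Fgg level was 2.10-fold lower at ZT12 than at ZT2, or -1.08 ± 0.17 (SE) in log2 units, and passed at an adjusted p of 0.032 in limma.

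Fgb, the beta chain, had 3863 and 4945 RPKM in the ZT0 libraries, 7098 and 5062 RPKM in those of ZT2 and 3090 and 2789 RPKM in those of ZT12. The order of the time points was that of the other chains, but ZT2 replicate 1 stood 1.40 times above replicate 2, and replicate 2 came close to the higher ZT0 library. The fitted ZT12 against ZT2 change of -1.03 ± 0.22 (SE, log2 scale) did not pass, at a limma adjusted p of 0.074. It passed by voom on the recovered reads, at an adjusted p of 0.010, where voom called 4.38% of all tested genes. The Fgb change ran from -1.27 to -0.79 when any 1 library was left out. The 95% interval of the change fitted to all libraries, -1.56 to -0.50, contains the changes fitted for Fga and Fgg.

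Fga and Fgg were thus 2 of 10 genes of the group called between ZT2 and ZT12, both lower at ZT12, where 2.06% of all tested genes were called and 0.993% were called as lower. Both calls rest on the spread shared by all 3 time points, ZT0 included. They were lost in a fit on the ZT2 and ZT12 libraries alone (limma adjusted p of 0.081 for Fga and 0.10 for Fgg). That fit called 0.467% of all tested genes. Without the variance trend or with array weights they were also lost (limma adjusted p of 0.083 to 0.12). Those settings called 0.958% and 0.682% of all tested genes. Whether they were kept when 1 library was left out depended on the library, and such fits leave a single library in a time point. The log2 changes themselves stayed between -1.20 and -1.07 for Fga and between -1.17 and -0.98 for Fgg when any 1 library was left out.

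**Figure D2:**
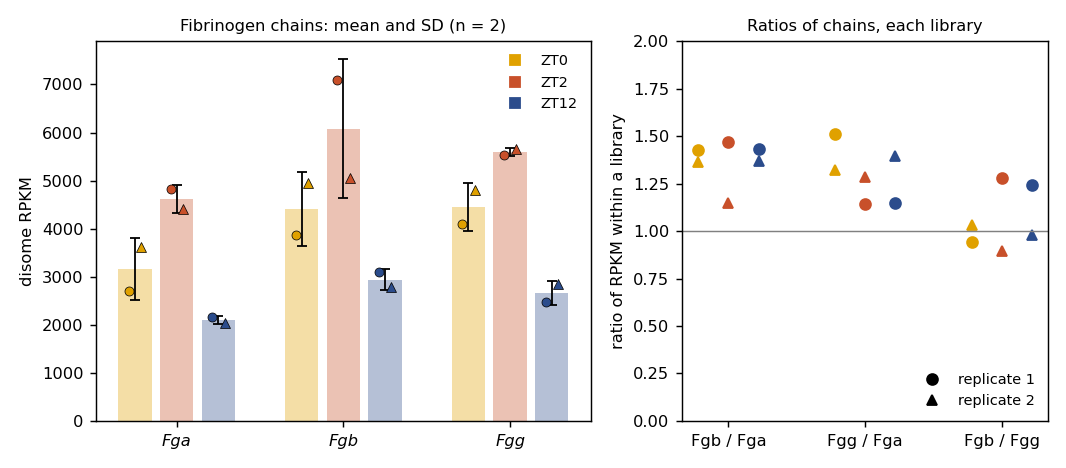
Left, disome RPKM of the fibrinogen chains (bars are means, error bars SD, n = 2; circles replicate 1, triangles replicate 2); right, ratios of RPKM between chains within each library. All 3 chains are highest at ZT2 and lowest at ZT12, while the ratios of chains show no common order of the time points.

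Fibrinogen is assembled from equal numbers of the 3 chains, and the ratio of their disome levels was taken within each library. Fgb over Fga was 1.37 ± 0.115 and Fgg over Fga 1.30 ± 0.144 (SD, n = 6 libraries each). Fgb over Fga was 1.43 and 1.37 in the ZT0 libraries, 1.47 and 1.15 in those of ZT2 and 1.43 and 1.37 in those of ZT12. ZT2 replicate 2 was the lowest, all others were at 1.37 or above, and the time points overlapped. Fgg over Fga was 1.51 and 1.32 in the ZT0 libraries, 1.15 and 1.28 in those of ZT2 and 1.15 and 1.40 in those of ZT12. Both ZT0 ratios were above both ZT2 ratios, and the ZT12 ratios overlapped those of the other time points. Fgb over Fgg ran from 0.894 to 1.28, with the extremes in the ZT2 libraries. From lowest to highest library, the chains spanned 2.28 (Fgg), 2.38 (Fga) and 2.55 times (Fgb), and the ratios 1.28 (Fgb over Fga), 1.32 (Fgg over Fga) and 1.43 times (Fgb over Fgg).

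The vitamin K dependent zymogens, which need carboxylated glutamates to bind membranes, did not share a single course. F2 encodes prothrombin, whose active form thrombin cuts fibrinogen. It had 710 and 742 RPKM in the ZT0 libraries, 590 and 527 RPKM in those of ZT2 and 510 and 529 RPKM in those of ZT12. Both ZT0 libraries were above all others, and ZT2 and ZT12 overlapped. The ZT12 against ZT0 change was -0.48 ± 0.15 (SE, log2 scale), with a limma adjusted p of 0.21, and it did not pass. F2 was therefore highest at ZT0, the point at which fibrinogen was intermediate.

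F9, the factor missing in haemophilia B, had 92.4 and 98.6 RPKM in the ZT0 libraries, 134 and 149 RPKM in those of ZT2 and 98.6 and 110 RPKM in those of ZT12. Both ZT2 libraries were above all others. Its ZT2 against ZT0 change of 0.56 ± 0.16 (SE, log2 scale) came closest to the threshold in that comparison, at a limma adjusted p of 0.25, and did not pass.

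F10, which as factor Xa turns prothrombin into thrombin, had 275 and 302 RPKM in the ZT0 libraries, 307 and 436 RPKM in those of ZT2 and 309 and 304 RPKM in those of ZT12. A single library, ZT2 replicate 2, stood above an otherwise narrow band of 275 to 309 RPKM. Against ZT0, its log2 change was 0.34 ± 0.20 (SE) at ZT2 and 0.09 ± 0.20 (SE) at ZT12, with limma adjusted p of 0.48 and 0.89.

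F7, which starts the cascade with tissue factor, had 57.5 and 68.4 RPKM in the ZT0 libraries, 68.4 and 44.2 RPKM in those of ZT2 and 50.3 and 38.0 RPKM in those of ZT12. It had the widest replicate gap of the group, a factor of 1.55 at ZT2, and its time points overlapped except for ZT0 and ZT12. That difference, -0.51 ± 0.26 (SE, log2 scale), did not pass at a limma adjusted p of 0.43. F7 lies at chr8:13025506-13035809 and F10 at chr8:13037308-13056676, 1498 bp downstream on the same strand. Despite this closeness, F10 exceeded F7 by 4.41 to 9.86 times in RPKM within a library.

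Proc encodes protein C, which when active shuts down the cascade by cutting factors V and VIII. It had 351 and 349 RPKM in the ZT0 libraries, 424 and 361 RPKM in those of ZT2 and 333 and 300 RPKM in those of ZT12. The order of the time points was that of fibrinogen, but the span from lowest to highest was only 1.41 times. The ZT12 against ZT2 change of -0.30 ± 0.16 (SE, log2 scale) did not pass, at a limma adjusted p of 0.35. Together with Fga, Fgb and Fgg, Proc was among 4 of 10 genes with both ZT2 libraries above both ZT0 libraries and those above both ZT12 libraries. This order was found in 3.35% of all tested genes.

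The remaining zymogens lie outside the vitamin K group. Plg encodes plasminogen, the precursor of plasmin, which dissolves fibrin. It had 767 and 908 RPKM in the ZT0 libraries, 900 and 1124 RPKM in those of ZT2 and 682 and 620 RPKM in those of ZT12. The ZT12 libraries were below all others, and ZT0 and ZT2 overlapped. The ZT12 against ZT2 change of -0.63 ± 0.18 (SE, log2 scale) was the next after the fibrinogen chains in size, with a limma adjusted p of 0.13. F12, the contact factor that starts clotting on charged surfaces, had 141 and 140 RPKM in the ZT0 libraries, 113 and 124 RPKM in those of ZT2 and 113 and 109 RPKM in those of ZT12. F12 varied least, 1.30 times from lowest to highest library, and its ZT0 libraries were above all others. The ZT12 against ZT0 change was -0.34 ± 0.16 (SE, log2 scale), with a limma adjusted p of 0.37.

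**Figure D3:**
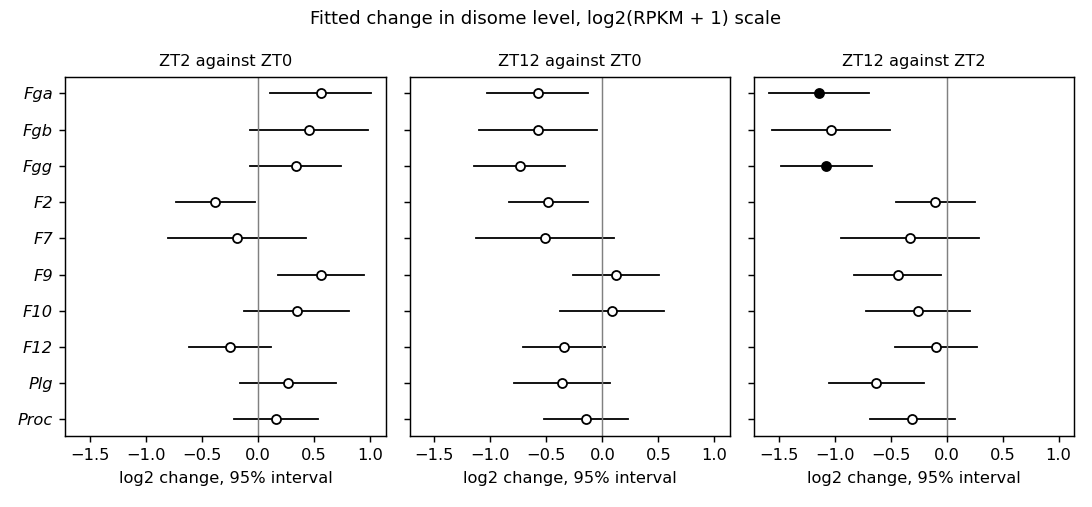
Fitted log2 changes in disome level for the 3 pairwise comparisons, with 95% intervals from limma; filled points passed an adjusted p of 0.05. Fga and Fgg between ZT2 and ZT12 are the filled points, and the intervals of Fga, Fgb, Fgg, F9 and Plg lie below 0 in that comparison, as do those of 9.17% of all tested genes.

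Over the whole group, levels at ZT12 were mostly the lowest. Between ZT2 and ZT12, 10 of 10 genes had a negative fitted change, as had 47.7% of all tested genes. The median of the 10 was -0.38 on the log2 scale, against 0.03 over all tested genes. For 7 of the 10 the ZT12 libraries were all below the ZT2 libraries, as were those of 22.3% of all tested genes. When libraries were scaled to the same total reads, which moved the median of all genes to 0.12, 8 of 10 remained negative and F2 and F12 lay at 0.00 and 0.01. The fibrinogen chains had the most negative changes, between -1.14 and -1.03, and only 2.70% to 3.49% of tested genes had lower values than these 3. The 7 zymogens had changes between -0.63 and -0.09, with a median of -0.30.

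Between ZT0 and ZT12, 8 of 10 genes were lower at ZT12, as were 50.8% of all tested genes. The median log2 change of the 10 was -0.42, against -0.01 over all tested genes. None was called by limma (0 of 10), where 0.946% of all tested genes were. Without adjustment, 4 of the 10 had a limma p under 0.05, all lower at ZT12, as had 8.34% of all tested genes in that direction. On the recovered reads voom called 1 of 10, Fgg, at an adjusted p of 0.026, and 3.39% of all tested genes. The most negative change was that of Fgg, -0.74 ± 0.17 (SE). Its limma adjusted p was 0.12, and 0.038 with array weights, a setting that called 4.96% of all tested genes. The libraries did not overlap for any of the 10, with 8 lower and 2 (F9 and F10) higher. Over all tested genes 27.8% were lower and 26.6% higher without overlap.

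Between ZT0 and ZT2, 7 of 10 genes were higher at ZT2 and 3 (F2, F7 and F12) lower, where 53.6% of all tested genes were lower. The median log2 change of the 10 was 0.30, against -0.04 over all tested genes. The median of the 10 was 0.19 without ZT0 replicate 1 and 0.20 without ZT2 replicate 2. None was called by limma (0 of 10) or by voom (0 of 10), where limma called 0.0239% and voom 0.108% of all tested genes. Without adjustment, Fga and F9 (higher) and F2 (lower) had a limma p under 0.05, against 13.7% of all tested genes in either direction (5.4% higher). The libraries did not overlap for 6 genes that were higher and 2 that were lower, against 21.5% and 24.9% of all tested genes. The sign of F7 rested on ZT2 replicate 2, since its log2 change was -0.19 with that library and 0.12 without it.

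The moderated F test over the 3 time points called 0 of 10 genes at an adjusted p of 0.05, where 1.26% of all tested genes were called. The smallest limma adjusted p were those of Fgg (0.065), Fga (0.080) and Fgb (0.13). By voom these 3 were called, with 4.24% of all tested genes. Without adjustment, 6 of 10 genes had a limma p under 0.05, namely the fibrinogen chains, F2, F9 and Plg, against 18.6% of all tested genes. The mean level was highest at ZT2 and lowest at ZT12 in 5 of 10 genes (Fga, Fgb, Fgg, Plg and Proc), a course seen in 18.1% of tested genes. It was highest at ZT0 and lowest at ZT12 in F2, F7 and F12, a course seen in 16.0% of tested genes. In F9 and F10 it was highest at ZT2 and lowest at ZT0, a course seen in 15.3% of tested genes. The 3 pairwise comparisons share libraries, so these counts are not independent of each other.

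**Figure D4:**
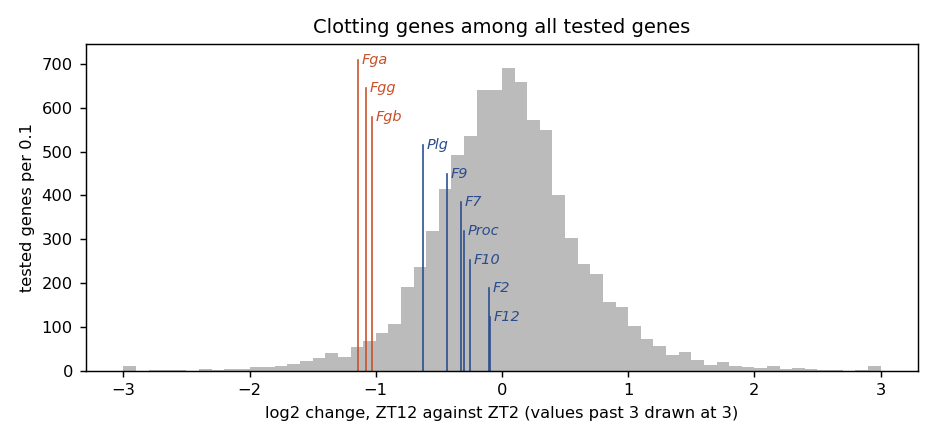
Histogram of the fitted log2 change from ZT2 to ZT12 over the 8355 tested genes, in bins of 0.1, with lines at the fibrinogen chains (red) and the zymogens (blue); line heights have no meaning. Fibrinogen lies between -1.14 and -1.03, in the lower tail, and the zymogens between -0.63 and -0.09, within the bulk.

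The gap between replicates of a time point was mostly smaller for these genes than the median gap over all tested genes. The median gene of all those listed held only 67 to 144 reads per library. On the log2 scale, the median gap was 0.18 (ZT0), 0.20 (ZT2) and 0.14 (ZT12), against 0.19, 0.40 and 0.27 over all tested genes. The gaps above the all-gene median at ZT0 were those of Fga (0.42), Fgb (0.36), F7 (0.25), Plg (0.24) and Fgg (0.23). At ZT2 they were those of F7 (0.62), F10 (0.50) and Fgb (0.49), and at ZT12 that of F7 (0.40). For the fibrinogen chains the counting error of a gap was 0.0084 to 0.0105, and the measured gaps, which also hold the difference between pools of animals, were 0.033 to 0.49. For F7, with the fewest reads, the counting error was 0.075 to 0.091 and the gaps were 0.25 to 0.62. Replicate 2 was the higher for 8 of 10 genes at ZT0, 5 at ZT2 and 3 at ZT12.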

How the data were processed

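The authors deposited 1 table of RPKM values per library, without header or gene names. Per the labels' protocols, 650 U of RNase I acted on each pooled lysate for 45 min before ribosomes were purified. Per the submitters' processing notes, the tools included Bowtie2 2.3.0 and STAR besides CASAVA 1.82, cutadapt, edgeR and StringTie, with builds GRCm38.p2 and mm10. Annotation, gene filter and the role of each tool were not given in the sources used here.

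Whole reads were recovered from ratios of RPKM between libraries, to a relative tolerance of 5e-13, directly for 8940 of 8941 genes (99.99%) and for 1 gene through its length. The library constants followed the upper quartile of reads. Recovered lengths were multiples of 3 for 95.2% of genes, the 10 members included, and are called coding lengths here.

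Time points were compared with limma 3.58.1 (R 4.3.3) on the log2(RPKM + 1) scale, leaving out genes whose mean was under 1 RPKM. All 6 libraries entered 1 fit with 3 residual degrees of freedom and a variance trend. Benjamini-Hochberg adjustment ran over all 8355 genes, with a threshold of 0.05. The scripts were tested on simulated data. Members, lists and tests were chosen with earlier results of these data known, and the motifs with the promoter sequences in view. Member names come from the identifier list, and all 10 are described. Lists of other clotting genes, regulators and cell type markers were planned by symbol but not used, since no reference table pairs symbols with these identifiers. Positions and promoters were matched to RefSeq by symbol (10 and 8 of 10). Per the design text each library is a pool of 2 livers, so p-values measure the spread between pools and preparations together. Alternatives covered the pseudocount, filter, scaling, variance prior, array weights, libraries in the fit, replicate block, threshold, voom on recovered reads and leaving out each library.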

Additional observations from a re-analysis of the deposited data

How the results depend on the processing

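Of 10 genes, 2 were called for ZT12 against ZT2, where 2.06% of all tested genes were called. The count became 0 without the variance trend (0.958% of all tested genes), with only the 4 libraries compared (0.467%) and with array weights (0.682%). It became 3 (Fgb too) with voom (4.38%) and at an adjusted p of 0.1 (5.06%). Fits that left out 1 library moved this count either way, and only their log2 changes are given here. For ZT12 against ZT0 the count of 0 became 1 with array weights and with voom, while the share of all tested genes called rose from 0.946% to 4.96% and 3.39%. In fits of all 6 libraries, the F test count of 0 became 1 with a filter at 5 RPKM. It became 3 with voom and 2 at an adjusted p of 0.1. Those settings called 2.70%, 4.24% and 3.65% of all tested genes. The replicate numbers did not pair the libraries (correlations of deviations -0.076, -0.019 and 0.018). With the replicate number as a block 1 gene, Fgg, was called for ZT12 against ZT2 and Fga had a limma adjusted p of 0.064. The block also lowered the share of all tested genes called in that comparison. The median log2 change for ZT12 against ZT0 was -0.33 with libraries scaled to the same total and -0.30 with quantile normalization; for ZT12 against ZT2 it was -0.28 and -0.33. When libraries were left out, the medians ran from 0.19 to 0.40 (ZT2 against ZT0), -0.50 to -0.31 (ZT12 against ZT0) and -0.51 to -0.38 (ZT12 against ZT2). The sign turned for F7 (ZT2 against ZT0, 0.12 without ZT2 replicate 2) and, scaled to the same total, for F2 (0.00072) and F12 (0.0071) in ZT12 against ZT2. The share of the 10 genes was 1.30% of summed RPKM, and without length Fgb over Fga was 1.18 and Fgg over Fga 1.02, which follows from their coding lengths. The cause of the other shifts was not tested. With 1 library left in a time point, that library is assumed to vary like the others.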
